A study of Homo sapiens with 6 samples.

Results

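SLC46A3 and 9 other genes for transporters of the lysosomal membrane were followed after selamectin exposure in MDA-MB-231, a widely used human cell line derived from a triple-negative breast tumour. The set was defined by gene symbol: a transcript cluster, meaning the set of array probes grouped for a locus, was taken where the platform annotation gave it exactly 1 symbol and that symbol was SLC46A3, SLC15A3, SLC15A4, SLC38A9, SLC36A1, SLC29A3, SLC17A5, MFSD8, MFSD12 or CTNS. All 10 genes were found among the 18417 genes measured, and each had a single cluster, so no choice between clusters was needed. SLC46A3 was chosen because it was already known to be among the genes that fell most on these arrays, so its change is given as a description and without a test. The others were chosen for their place in the lysosome, also with earlier results of these data known. Cells of the selamectin group received 1 µM of this avermectin-type antiparasitic lactone for 24 h (3 arrays), and those of the control group are called untreated in the titles while the protocol speaks of vehicle (3 arrays). What the controls received is therefore not settled. No group carried a genetic change made for the experiment, and all arrays come from 1 cell line. The replicates are described as independent, without an account of how the cultures were separated. The p-values set each difference against a spread between these arrays that is estimated partly from other genes.

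Lysosomes break down proteins, nucleic acids, lipids and glycans, and the products leave through carriers in the lysosomal membrane. Several carriers use the proton gradient of the acidic lumen, and some also report the amino acid content of the lumen to the growth kinase complex mTORC1. SLC46A3 lets the maytansine-containing breakdown products of certain antibody-drug conjugates out of the lysosome, and it belongs to a small family that includes the proton-coupled folate transporter SLC46A1. SLC15A3 and SLC15A4 carry histidine and small peptides, SLC38A9 senses arginine and exports amino acids, and SLC36A1 exports small neutral amino acids. SLC29A3 carries nucleosides and SLC17A5, or sialin, exports sialic acid. CTNS, or cystinosin, exports cystine, and MFSD12 is needed for cysteine import into lysosomes and melanosomes. MFSD8 is altered in a form of neuronal ceroid lipofuscinosis.

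The expression values are taken as log2 values, on which 1 unit is a change by a factor of 2 in signal. Apart from the ranks of marker genes below, levels of different genes are not compared, since each rests on its own probes. The 6 arrays had medians between 7.47 and 7.51. The first principal component of all genes (45.8% of the variance) put the selamectin arrays on one side, at 10.98, 16.24 and 12.22, and the untreated arrays on the other, at -20.19, -7.56 and -11.69. The second (20.8%) placed selamectin array 3 at -18.48, while the other 5 arrays lay between -3.97 and 9.83. That array also held the lowest selamectin value for 8 of the 10 transporters. The same count over all genes was not made, so this is not known to be particular to the transporters. For the cell line label, the intermediate filament gene VIM, usually strong in this line, averaged 12.90 with selamectin and 12.67 untreated, and the epithelial adhesion gene CDH1, usually weak in it, averaged 6.01 with selamectin and 6.27 untreated. Without detection calls such values do not settle which markers were present. The mean over 6 genes usually strong in the line spanned 11.77 to 11.93 on selamectin arrays and 11.62 to 11.76 on untreated arrays, and over 7 genes usually weak in it 6.98 to 7.00 with selamectin and 6.95 to 7.04 untreated. For 11 leukocyte markers it spanned 6.48 to 6.50 with selamectin and 6.41 to 6.55 untreated, and for 11 fibroblast and endothelial markers 6.66 to 6.70 with selamectin and 6.61 to 6.67 untreated. These means hide a wide spread. By mean signal among all genes, the strong list held percentiles from 71 (AXL) to 99, and the weak list from 14 to 63 (ERBB2). Leukocyte markers held percentiles from 2.5 to 77 (CD68), and fibroblast and endothelial markers from 12 to 65 (CDH5). Of these 35 genes, PDGFRB (0.34), CD44 (0.42) and KRT5 (0.46) rose in limma (adjusted p = 0.040, 0.020 and 0.014) and none fell. That is 8.57% of them, beside 4.69% of all genes. At an unadjusted p under 0.05, limma put 7 higher and 3 lower, beside 2162 and 1512 of all 18417 genes. The part of other cell types in the results was not tested.

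The promoters of both transporters that were lower after selamectin, SLC46A3 and MFSD12, and of MFSD1, a related lysosomal carrier described below that rose, are shown because they allow a look at the sequences in front of genes that moved. Each run is the 250 bases before the annotated start, from RefSeq (GRCh38.p14), read 5′ to 3′ along the gene. They lie at chr13:28718971-28719220 (minus strand), chr19:3557587-3557836 (minus strand) and chr3:158801804-158802053 (plus strand). Capitals mark CCAAT, the letters of the NF-Y box (read as ATTGG on the opposite strand), and CACGTG, the E-box at the core of the CLEAR element to which TFEB-family factors bind.
SLC46A3: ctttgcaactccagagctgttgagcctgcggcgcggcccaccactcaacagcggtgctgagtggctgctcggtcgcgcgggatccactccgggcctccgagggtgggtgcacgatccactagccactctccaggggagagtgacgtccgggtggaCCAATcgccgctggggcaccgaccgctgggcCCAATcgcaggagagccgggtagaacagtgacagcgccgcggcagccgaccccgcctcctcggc
MFSD12: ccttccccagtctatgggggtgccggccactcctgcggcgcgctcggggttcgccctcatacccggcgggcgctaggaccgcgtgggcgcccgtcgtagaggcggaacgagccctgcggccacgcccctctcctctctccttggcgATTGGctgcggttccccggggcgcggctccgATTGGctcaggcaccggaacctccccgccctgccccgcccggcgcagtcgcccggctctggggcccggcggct
MFSD1: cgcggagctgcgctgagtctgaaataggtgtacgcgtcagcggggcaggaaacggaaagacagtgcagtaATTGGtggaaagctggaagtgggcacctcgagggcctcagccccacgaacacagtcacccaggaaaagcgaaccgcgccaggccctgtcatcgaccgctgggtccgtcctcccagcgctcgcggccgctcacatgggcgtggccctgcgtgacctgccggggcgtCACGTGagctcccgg

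In SLC46A3 the CCAAT letters begin at positions -95 and -64 counted from the start, and in MFSD12 they stand on the opposite strand at -104 and -73. MFSD1 holds CCAAT on the opposite strand at -180 and CACGTG at -15. Promoters were found for 9 of the 10 transporters, all but SLC15A3. CCAAT, searched on both strands, occurred in 6 of these 9 (SLC46A3, SLC15A4, SLC36A1, SLC17A5, MFSD12 and CTNS) and in 33.0% of 27305 promoters of the same length. CACGTG occurred in 0 of the 9 and in 6.49% of all promoters. The promoters of GLMP and SLC46A1, which also rose and are described below, held neither run of letters. Only these exact letters were searched, so sites that differ by a base were not counted and may be present. The search for CCAAT was added after the sequences had been seen. These counts describe letters in this window, and no binding was measured.

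SLC46A3 was the transporter with the lowest log2 change of the 10. Its log2 values were 8.62, 8.50 and 8.31 on the selamectin arrays and 9.90, 9.62 and 9.71 on the untreated arrays. Every selamectin value lay below every untreated value, and the gap between the nearest arrays was 1.00. The group means were 8.48 ± 0.16 with selamectin and 9.74 ± 0.14 untreated (SD, n = 3 each). The difference of -1.27 ± 0.11 (SE) log2 units corresponds to a 2.40-fold lower signal, with a 95% interval of the fit from 2.03-fold to 2.85-fold lower. That interval makes no allowance for the choice of the gene by its fall. Among the changes of all 18417 genes, the change of SLC46A3 ranked 4 from the lowest. Leaving out 1 array at a time gave log2 changes between -1.34 and -1.18. In RNA from whole cultures, fewer cells that express the gene and less RNA per cell cannot be told apart.

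**Figure D1:**
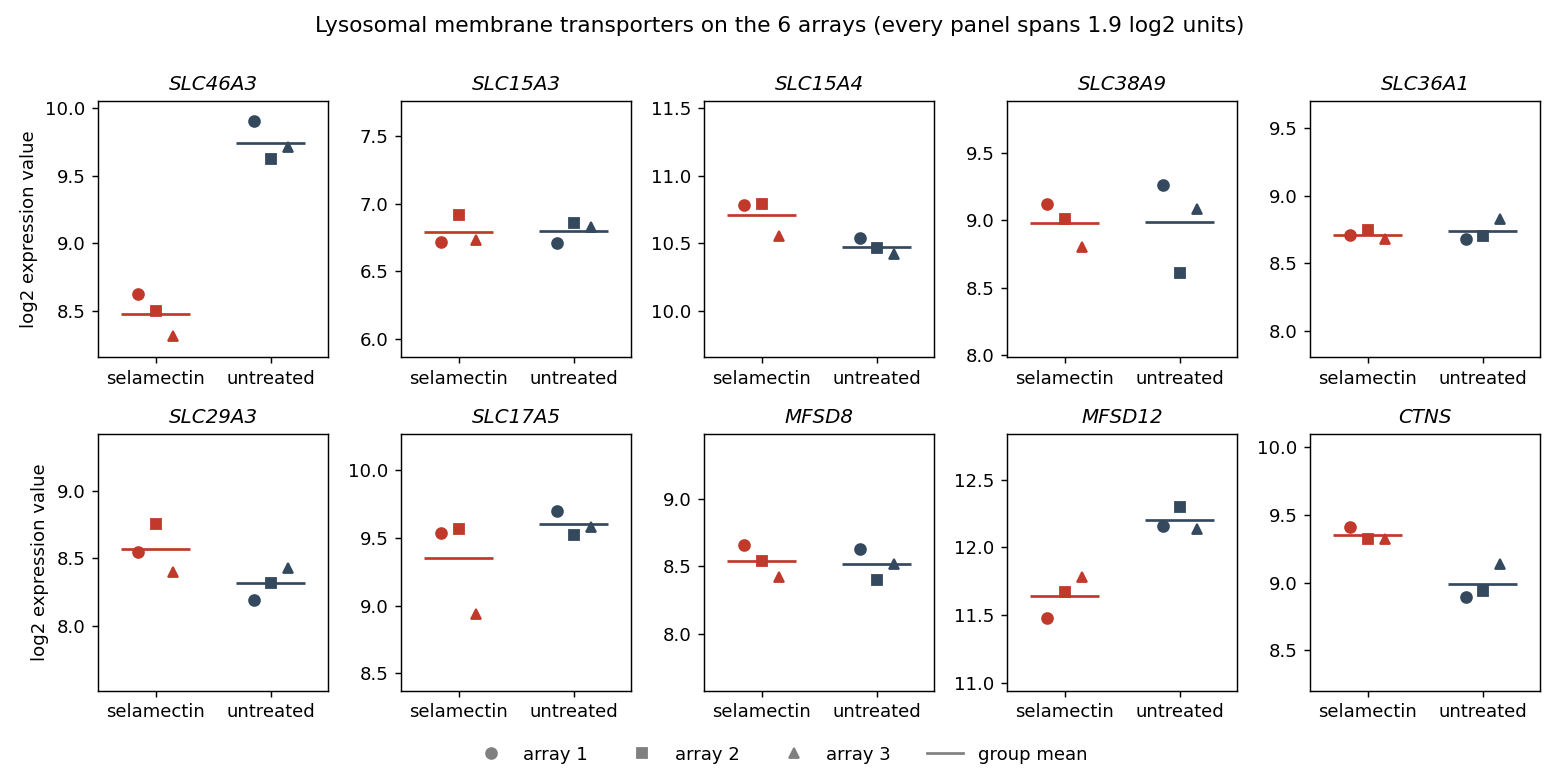
Log2 expression values of the 10 lysosomal membrane transporters on the 3 selamectin and 3 untreated arrays, with 1 panel per gene, each spanning the same range of log2 units; markers stand for array numbers and lines for group means. SLC46A3 and MFSD12 lie lower on all selamectin arrays, CTNS lies higher on all of them, and SLC17A5 is low on selamectin array 3 only.

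MFSD12, which supplies cysteine to the lumen, also fell. It read 11.48, 11.67 and 11.78 with selamectin and 12.16, 12.30 and 12.14 in untreated cells. The groups did not overlap, and selamectin array 1 was the lowest array. The means of 11.64 ± 0.15 with selamectin and 12.20 ± 0.083 untreated (SD, n = 3 each) differed by -0.56 ± 0.091 (SE) log2 units, or 1.47-fold lower (limma adjusted p = 0.0096, 95% interval 1.28-fold to 1.69-fold lower). It remained past the threshold whichever single array was left out (adjusted p between 0.0027 and 0.044), but not when all 33297 clusters of the table entered the fit (0.055).

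CTNS, which takes cystine in the opposite direction, out of the lysosome, was higher on every selamectin array without passing the test. Its log2 values were 9.41, 9.32 and 9.32 with selamectin and 8.89, 8.94 and 9.14 untreated. The difference was 0.36 ± 0.098 (SE) log2 units, with a 95% interval from 0.14 to 0.58 (limma adjusted p = 0.063). Untreated array 3 was nearest to the selamectin arrays, at a distance of 0.18. The adjusted p fell below 0.05 in 3 of 9 alternative settings that kept all arrays, namely 0.046 without the eBayes trend, 0.040 among the brighter genes and 0.048 with array weights; over all alternatives it ranged from 0.040 to 0.21.

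The peptide carriers differed in their values, and neither passed. SLC15A4 had log2 values of 10.78, 10.79 and 10.55 with selamectin and 10.54, 10.46 and 10.42 untreated. The groups were apart by only 0.01, and the log2 change was 0.23 (95% interval 0.03 to 0.44, limma adjusted p = 0.20). With array weights it reached 0.31 (adjusted p = 0.015), and without selamectin array 3 also 0.31 (0.056). SLC15A3 had 6.72, 6.92 and 6.73 with selamectin and 6.71, 6.86 and 6.83 untreated, so the groups overlapped and the change was -0.01 (95% interval -0.20 to 0.18).

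The amino acid carriers that feed mTORC1 signalling gave changes near 0 in the reported fit, with intervals that leave changes in both directions possible. SLC36A1 read 8.71, 8.75 and 8.68 with selamectin and 8.68, 8.70 and 8.83 untreated, a change of -0.02 with a 95% interval from -0.22 to 0.18 (limma adjusted p = 0.91). SLC38A9 read 9.12, 9.01 and 8.80 with selamectin and 9.26, 8.61 and 9.08 untreated. Its untreated arrays spread widely (SD 0.34), with array 2 the lowest of all 6, and the interval of its change reached from -0.35 to 0.34. Without that untreated array the change was -0.19 in place of -0.01, without untreated array 1 it was 0.14, and without selamectin array 3 it was 0.08.

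Among the carriers of nucleosides and sugars, SLC29A3 had log2 values of 8.55, 8.75 and 8.40 with selamectin and 8.19, 8.32 and 8.43 untreated. Selamectin array 3 and untreated array 3 overlapped, and the change was 0.25 (95% interval 0.01 to 0.50, limma adjusted p = 0.23). Without selamectin array 3 it was 0.34 (adjusted p = 0.11). SLC17A5, the sialic acid exporter, had 9.54, 9.57 and 8.94 with selamectin and 9.70, 9.52 and 9.58 untreated. Its change of -0.24 (95% interval -0.58 to 0.09, adjusted p = 0.41) rested on selamectin array 3, and without that array it was -0.04. MFSD8 had 8.66, 8.54 and 8.42 with selamectin and 8.63, 8.40 and 8.52 untreated, with overlapping groups and a change of 0.02 (95% interval -0.20 to 0.25), or 0.09 without selamectin array 3.

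Of the 9 transporters other than SLC46A3, 0 rose and 1, MFSD12, fell in limma at an adjusted p under 0.05. Over all genes 2.41% rose and 2.28% fell, 4.69% in all. Before adjustment, limma put 3 of the 9 higher (SLC15A4, SLC29A3 and CTNS) and 1 lower at p under 0.05. By the same measure 2162 of all 18417 genes were higher and 1512 lower. The groups did not overlap for 3 of the 9 (SLC15A4, MFSD12 and CTNS), while 25.3% of all genes showed no overlap, 16.0% with selamectin higher and 9.30% with it lower. The median log2 change was -0.01 for the 10 transporters and 0.04 for all genes. SLC46A3 is included in both of these values. For the 8 genes that did not pass, the intervals show which changes these arrays leave possible; a p above the threshold does not show equal expression.

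**Figure D2:**
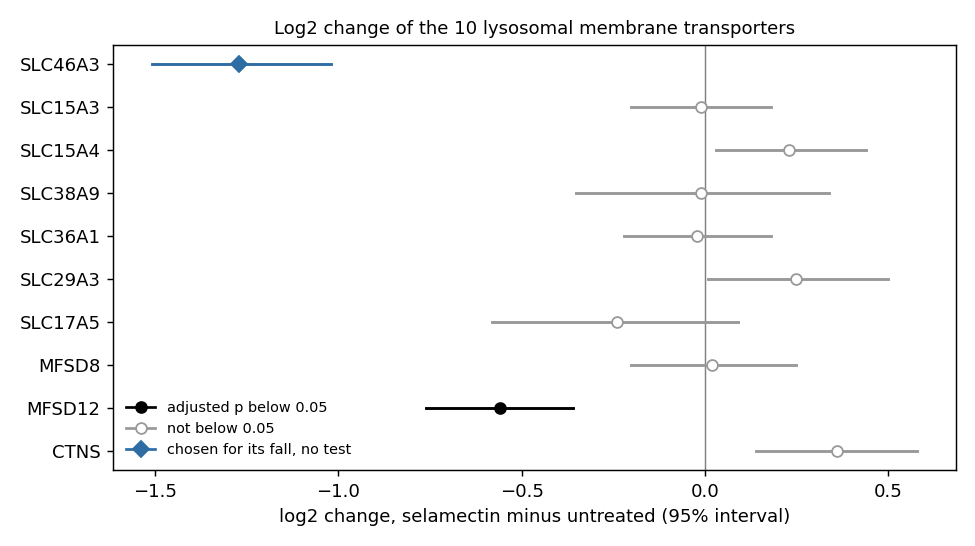
Log2 change (selamectin minus untreated, x axis) of each of the 10 transporters with the 95% interval of the limma fit; filled circles passed an adjusted p of 0.05, and the diamond marks SLC46A3, chosen for its fall and not tested. SLC46A3 at -1.27 and MFSD12 at -0.56 lie left of 0, and CTNS at 0.36 is the highest of the set.

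The profile most like that of SLC46A3 over the 6 arrays was that of LPL, the lipoprotein lipase. Likeness was measured as the root mean square difference, in log2 units, between values centred on each gene's own mean, over 18416 other genes. Placeholder symbols (LOC, C#orf, FAM and KIAA), OR symbols and small RNA symbols were skipped when the nearest genes were named, so a skipped gene may lie nearer. LPL differed by 0.041. Its lowest array was selamectin array 3, at a log2 value of 9.70, and its highest was untreated array 1, at 11.19, the same arrays as for SLC46A3. The next were the HSP70-family chaperone HSPA2 at 0.13, the cysteine-producing enzyme CTH at 0.17, the focal adhesion scaffold NEDD9 at 0.18 and the netrin receptor UNC5A at 0.19. Of the other transporters MFSD12 came nearest, at 0.41, and CTNS lay farthest, at 0.83. The measure finds genes with a similar size of fall on the same arrays and says nothing of shared control.

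**Figure D3:**
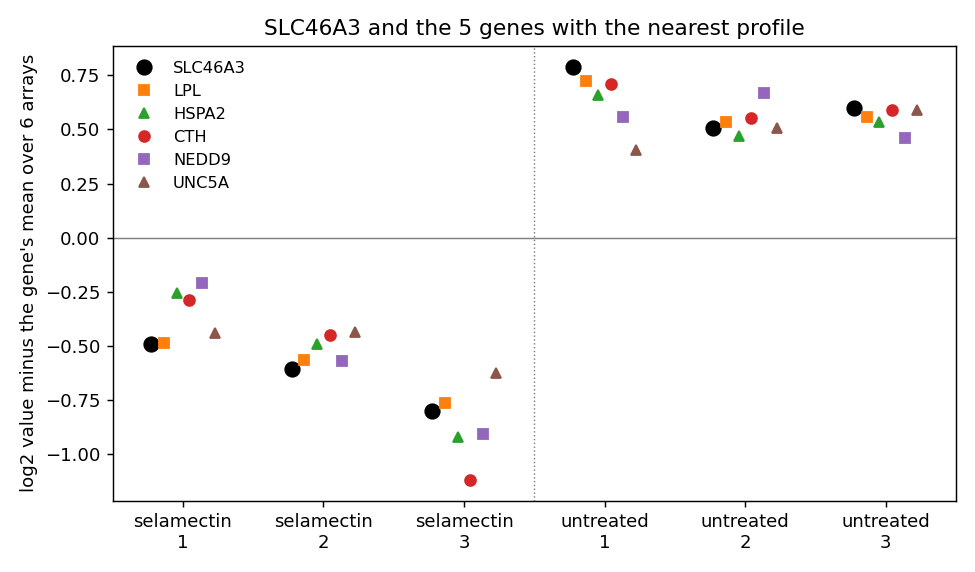
Log2 values centred on each gene's mean over the 6 arrays (y axis) for SLC46A3 (large black circles) and the 5 genes with the nearest profile once the symbols named in the text were skipped, on selamectin arrays 1 to 3 and untreated arrays 1 to 3. LPL stays within a small distance of SLC46A3 on every array, while CTH, HSPA2 and NEDD9 lie lower than SLC46A3 on selamectin array 3.

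The relatives of the transporters were 36 other genes whose symbols share a family prefix with the 10 (SLC46, SLC15, SLC38, SLC36, SLC29, SLC17 or MFSD). Of these, 4 rose and none fell in limma (7 higher and 1 lower at an unadjusted p under 0.05). That is 11.1% of the 36, beside 4.69% of all genes (2.41% rising and 2.28% falling). Log2 changes were above 0 for 29 of the 36 and for 11597 of all 18417 genes. SLC46A1, the folate transporter of the same family as SLC46A3, had log2 values of 9.81, 9.92 and 10.16 with selamectin and 9.31, 9.47 and 9.54 untreated. It rose 1.44-fold (log2 change 0.52 ± 0.11 SE, adjusted p = 0.025), whereas SLC46A3 stood at -1.27; the difference between these 2 changes was not tested. The call of SLC46A1 was lost without selamectin array 2 (0.082) or untreated array 1 (0.11), 2 (0.053) or 3 (0.069). The remaining family gene, SLC46A2, changed by 0.04 (95% interval -0.17 to 0.26). MFSD1, a lysosomal exporter of dipeptides, rose 1.63-fold (adjusted p = 0.0048), with 11.69, 11.79 and 11.66 with selamectin against 10.84, 11.01 and 11.18 untreated. The others were SLC38A12 at 0.43 (adjusted p = 0.021) and MFSD2A, a lysolipid carrier of the plasma membrane, at 0.38 (0.049). The median log2 change of the 36 was 0.08. The 4 calls became 2 without selamectin array 1 and 1 without selamectin array 2, untreated array 1 or untreated array 3, and MFSD1 was past the threshold in each of those fits (adjusted p at most 0.028).

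Other membrane proteins of the lysosome gave 4 rises and no fall among 50 genes in limma (12 higher and 4 lower at an unadjusted p under 0.05). That is 8.0% of the 50, beside 4.69% of all genes (2.41% rising and 2.28% falling). MFSD1 is counted here too. GLMP, the accessory protein that protects MFSD1 from degradation, rose with it, from separate probes: its log2 values were 12.03, 12.06 and 11.89 with selamectin and 11.38, 11.74 and 11.57 untreated, a change of 0.43 ± 0.099 SE (adjusted p = 0.036). SLC35F6 rose by 0.40 (adjusted p = 0.028) and HGSNAT, the acetyltransferase of heparan sulphate breakdown, by 0.37 (0.049), a call that was lost whichever array was left out (0.054 to 0.18). LAMP1 and LAMP2, the abundant structural glycoproteins of the lysosomal membrane, stood at -0.02 (95% interval -0.18 to 0.14) and -0.13 (-0.33 to 0.06); they were picked for mention by role after their values were seen. The median of the 50 was 0.05. The count was 1 without selamectin array 2, untreated array 1 or untreated array 3, and 2 with a replicate block; GLMP then stood at an adjusted p of 0.14, 0.14, 0.12 and 0.051, and at 0.088 without selamectin array 1.

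Of 31 genes for the sensing of lysosomal amino acids, the signalling side of SLC38A9 and SLC36A1, 2 (6.45%, beside 4.69% of all genes) rose and none fell in limma (3 higher and 2 lower at an unadjusted p under 0.05). The 2 were KPTN and ITFG2, both subunits of KICSTOR, which holds the mTORC1 inhibitor GATOR1 at the lysosome. KPTN read 7.69, 7.95 and 7.76 with selamectin and 7.16, 7.31 and 7.34 untreated, a 1.45-fold rise (adjusted p = 0.015). ITFG2 read 9.11, 9.19 and 9.06 with selamectin and 8.69, 8.64 and 8.86 untreated, a 1.31-fold rise (adjusted p = 0.047). KICS2, a further subunit of that complex, stood at -0.30 (adjusted p = 0.11), and is named with its value known. The lysosomal transcription factors had log2 changes of 0.07 for TFEB, -0.05 for TFE3 and -0.24 for MITF (adjusted p = 0.68, 0.75 and 0.16), likewise named for their role afterwards. Neither call remained with all clusters in the fit, or without selamectin array 2, untreated array 1 or untreated array 3 (0 genes in limma each, with 5, 5, 5 and 6 at an unadjusted p under 0.05), and 1 remained without selamectin array 1, without untreated array 2 or with a replicate block.

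SLC46A3 and the SLC15 carriers are also tied to sensing of bacterial cell wall fragments and nucleic acids, as carriers of the ligands or as partners of the sensors. Of 17 genes of those pathways 1 rose and none fell in limma (5 higher and 1 lower at an unadjusted p under 0.05). That is 5.88% of the 17, beside 4.69% of all genes. STING1, the receptor for cyclic dinucleotides, had log2 values of 9.68, 9.73 and 9.79 with selamectin and 9.41, 9.34 and 9.24 untreated. It rose 1.32-fold (adjusted p = 0.033), and this call was lost without selamectin array 1 (0.061) or 2 (0.12) or untreated array 1 (0.078), 2 (0.056) or 3 (0.15), with a replicate block (0.060) and with all clusters in the fit (0.085). NOD1, the muropeptide sensor, stood at -0.35 (95% interval -0.56 to -0.14, adjusted p = 0.067); it falls outside the rule for named genes and was picked with its value known. TASL, the adaptor that binds SLC15A4, stood at 0.08 (95% interval -0.04 to 0.21).

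The hydrolases that release the substrates of these carriers moved in both directions. Of 28 measured, 2 rose and 1 fell in limma (10.7%, beside 4.69% of all genes). NEU1, which releases the sialic acid that SLC17A5 exports, rose 1.55-fold (adjusted p = 0.0054), with 10.58, 10.64 and 10.53 with selamectin against 9.82, 10.00 and 10.03 untreated. ACP2, a lysosomal acid phosphatase, rose 1.57-fold (adjusted p = 0.0097), with 11.33, 11.16 and 10.94 against 10.39, 10.51 and 10.59 untreated. CTSF, the protease cathepsin F, read 9.24, 9.38 and 9.12 with selamectin and 9.68, 9.74 and 9.69 untreated and fell by 0.46 on the log2 scale (adjusted p = 0.025). The median of the 28 was -0.07, and at an unadjusted p under 0.05 there were 2 higher and 8 lower. NEU1 passed whichever array was left out (adjusted p up to 0.034). ACP2 lost its call without untreated array 1 (0.055), and CTSF without selamectin array 1 (0.061) or untreated array 1 (0.085), 2 (0.056) or 3 (0.097).

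**Figure D4:**
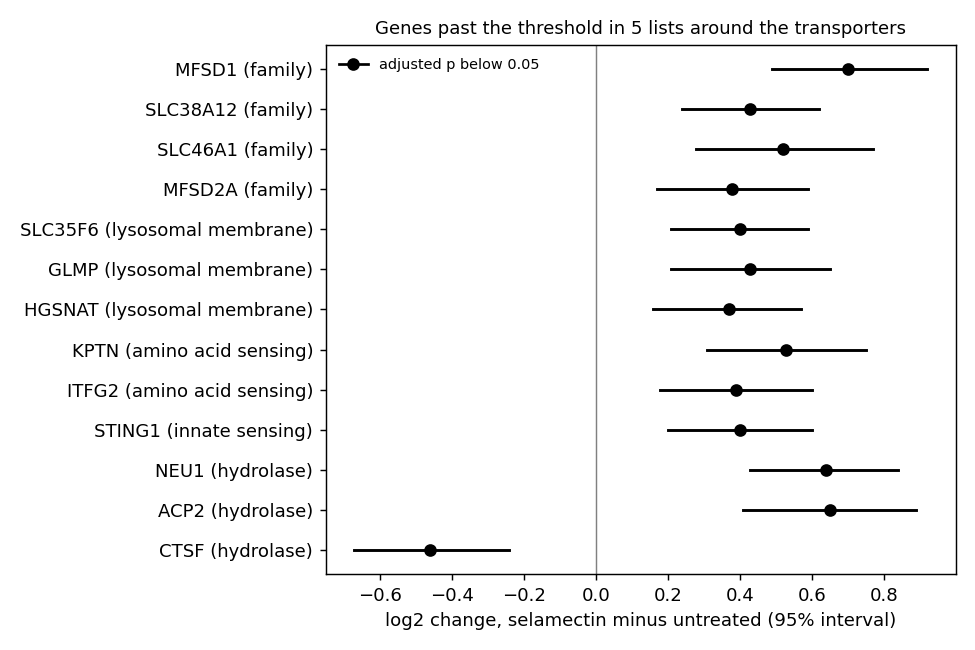
Log2 change (selamectin minus untreated, x axis) with the 95% interval for the 13 genes past an adjusted p of 0.05 in the 5 lists around the transporters, with the list in brackets; MFSD1 belongs to both the family and the membrane list. All but CTSF lie right of 0.

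The share past the threshold was 11.1% of the family relatives, 8.0% of the other membrane genes, 6.45% of the amino acid sensing genes, 5.88% of the innate sensing genes and 10.7% of the hydrolases, beside 4.69% of all genes. By direction, 2.41% of all genes rose and 2.28% fell. The unadjusted counts given for each list stand beside 2162 higher and 1512 lower among all 18417 genes in limma. The lists hold 17 to 50 genes and share members, and no test of a list against the other genes was made.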

How the data were processed

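Total RNA of 6 cultures was labelled with biotin, per the labels, and hybridised to Affymetrix whole-transcript arrays. The authors deposited 1 log2 value for each of 33297 clusters and array. Per the submitters' processing notes, RMA, Affymetrix Expression Console and Transcriptome Analysis Console are named, without versions or settings. No header states the log base, and the range of the values is that of RMA output. RMA usually normalizes arrays together, which removes a shift common to all genes, and compresses changes of dim genes. No genome build is stated in the sources at hand. Scanner files, detection calls and scan dates were not used here, so it is not known which genes were above background, and no batch could be tested.

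Of the clusters, 19460 had 1 symbol in the platform annotation. The brightest cluster stood for a gene, which left 18417 genes. Differences are selamectin minus untreated from limma 3.58.1 in R 4.3.3 (lmFit, eBayes with trend, two-sided, no block). P-values were adjusted by Benjamini-Hochberg across the 18417 genes, and 0.05 was the threshold. Precision is limited by 3 arrays per group (median SE 0.094). The transporters and gene lists were chosen with earlier results of these data known. From each list, genes past the threshold are named, up to 6 by smallest p. Other names from the lists fall outside this rule and were chosen afterwards, SLC46A2 and TASL among them. The SLC genes named under other observations are a selection of those past the threshold. Alternatives covered normalization, centring, a filter on dim genes, eBayes settings, array weights, averaged clusters, all clusters, a replicate block and leaving out each array.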

Additional observations from a re-analysis of the deposited data

How the results depend on the processing

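No direction of a called gene among the transporters and the lists around them reversed under the 15 alternatives. SLC46A3 stayed lower in all of them, between -1.34 and -1.18 without 1 array and between -1.27 and -1.20 in the other settings. SLC46A3 aside, 14 named genes of the transporters and these lists passed the threshold, and 3 of them (MFSD12, MFSD1 and NEU1) stayed past it whichever array was left out. The named marker genes, nearest-profile genes and SLC genes outside these lists were not followed singly through the alternatives. Of the transporters other than SLC46A3, which was chosen for its fall, only MFSD12 passed the threshold in each fit without 1 array. With array weights SLC15A4 and CTNS passed as rises beside MFSD12, and with all clusters in the fit none of these transporters passed. CTNS also passed among the brighter genes and without the eBayes trend. The number of other membrane genes past it was 8 among the brighter genes (7 rises and 1 fall) and 11 with array weights (9 rises and 2 falls). It was 1 with all clusters and 2 with the replicate block, against 4 in the reported fit, and between 1 and 4 without 1 array. Family relatives gave 1 with all clusters and between 1 and 4 without 1 array. Amino acid sensing genes gave 1 among the brighter genes, 0 with all clusters (by limma, 5 at an unadjusted p under 0.05), 1 with the replicate block and between 0 and 2 without 1 array. Innate sensing genes gave 2 among the brighter genes, 3 with array weights (2 rises and 1 fall), 0 with all clusters or the replicate block (limma, 5 and 6 at an unadjusted p under 0.05) and between 0 and 1 without 1 array. Hydrolases gave 8 with array weights (2 rises and 6 falls, against 2 rises and 1 fall as reported), 1 with all clusters and between 1 and 3 without 1 array.

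Over all genes, 444 rose and 420 fell; the numbers were 1822 and 1464 with array weights, 82 and 85 with all clusters, and 76 and 100 without untreated array 1. The weight of untreated array 3 was 5.11, so that setting leans on 1 array. Same-numbered arrays deviated from their group means with correlations of -0.01, 0.24 and -0.14 across genes, so the numbers are not used as pairs; the replicate block gave 307 rises and 343 falls. Among the transporters the block changed no call.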

Other observations

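Transporters at large, counted by SLC symbol after the data had been examined, included 364 genes, of which 20 rose and 9 fell in limma (7.97%, beside 4.69% of all genes). SLC46A3, chosen for its fall, is counted among the 9 and had the lowest log2 change of the 364. The largest other fall was that of SLC7A11, the cystine importer (-0.68, limma adjusted p = 0.0096), and falls also included SLC4A7, a sodium bicarbonate cotransporter (-0.66, limma adjusted p = 0.020), SLC26A2, a sulphate transporter (-0.62, 0.014), and SLC2A13, a proton myo-inositol cotransporter (-0.58, 0.015). The largest rise was that of the glucose transporter SLC2A1 (0.85, 0.0045), and rises also included SLC22A4, the ergothioneine transporter (0.80, 0.0038), SLC25A45, a mitochondrial carrier (0.64, 0.0068), SLC5A6, the sodium-dependent multivitamin transporter (0.56, 0.013), and SLC27A4, a fatty acid transport protein (0.53, 0.021). The total of 29 shrank to 4, 9, 18 and 8 when untreated array 1, untreated array 3, selamectin array 1 and selamectin array 2 were left out in turn, and to 5 with all clusters in the fit, and grew to 76 (51 rises and 25 falls) with array weights.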
